A study of Mus musculus with 4 samples.

Results

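Kupffer cell and macrophage genes are 31 mouse genes taken by gene name from the 54532 genes of the deposited count table: markers of the resident macrophages of the liver, and genes that macrophages in general express, without the genes of lipid-laden phagocytes. All 31 names were found. They were followed in 4 liver RNA-seq libraries of mice labelled with a liver-specific Cpt1a knockout and fasted for 24 h, called 4 livers here, and in 3 tables of comparisons that the authors deposited. Cpt1a couples long-chain fatty acids to carnitine at the outer membrane of mitochondria, the entry step of their oxidation there, and Cpt2 releases them again at the inner membrane. The tables set the Cpt1a knockout and a group labelled as a Cpt2 knockout, called the Cpt2 group here, each against 1 reference group, and then against each other.

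The headers name both knockouts with AlbCre, a Cre recombinase driven by the albumin promoter, which is active in hepatocytes and not the promoter of a macrophage gene. The design text gives the 24 h fast for both knockouts and for littermate controls. The header of the reference group combines the names Rab30 and Cpt2, whose meaning is not given in the labels, and neither strain, age, sex nor the number of libraries behind each comparison is stated. Cpt1a itself was 6.91-fold lower in the Cpt1a knockout than in the reference group in the authors' deposited table (adjusted p = 5.27e-51). Cpt2 did not pass a difference between the Cpt2 group and the reference group in the authors' deposited table (log2 fold change −0.07, adjusted p = 0.837), and a whole-gene count need not show the loss of part of a gene. The labels do not say that the 4 livers came from separate mice, so their spread may be technical. No library of the Cpt2 group or of the reference group was analysed here, so those comparisons carry no SD or n, and genotype cannot be told apart from batch.

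Kupffer cells sit in the liver sinusoids, where they clear microbes, dying cells, immune complexes and aged red blood cells from portal blood. They depend on signalling through the CSF1 receptor and on the transcription factor PU.1, and they carry a set of surface receptors and secreted proteins that macrophages newly derived from monocytes acquire late or in part. General macrophage genes such as those for lysozyme, the oxidase subunit gp91phox and the adaptor DAP12 are also used by monocytes, and several by neutrophils or dendritic cells. In RNA from whole liver, more cells of a type and more RNA per cell cannot be told apart, and this holds for every value below.

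The stretches of 250 bases before the transcription start are shown for 7 members whose values carry the comparisons, so that the upstream sequence of genes that differed in unlike ways can be read side by side. They come from RefSeq (GRCm38.p6) and are written 5′ to 3′ on the strand of the gene. Capitals mark GAGGAA, a core sequence that PU.1 binds, or TGCTGAC, a partial recognition site of MAF proteins that was added to the search after values had been seen. Both were searched on both strands, so they also appear as TTCCTC and GTCAGCA. The first set holds Clec4f (chr6:83656117-83656366, minus strand), Timd4 (chr11:46810549-46810798, plus strand), Vsig4 (chrX:96293439-96293688, minus strand) and Cd163 (chr6:124304401-124304650, plus strand), the members that were lower in the Cpt2 group than in the reference group.
Clec4f upstream window: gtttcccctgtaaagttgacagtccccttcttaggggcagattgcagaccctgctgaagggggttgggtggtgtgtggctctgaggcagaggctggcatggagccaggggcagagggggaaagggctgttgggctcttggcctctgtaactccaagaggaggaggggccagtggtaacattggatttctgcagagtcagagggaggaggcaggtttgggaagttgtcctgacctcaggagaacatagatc
Timd4 upstream window: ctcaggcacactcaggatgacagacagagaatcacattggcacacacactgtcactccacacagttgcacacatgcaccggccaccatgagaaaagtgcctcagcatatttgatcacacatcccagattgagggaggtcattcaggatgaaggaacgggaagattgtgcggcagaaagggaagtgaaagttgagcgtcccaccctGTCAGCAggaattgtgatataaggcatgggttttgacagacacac
Vsig4 upstream window: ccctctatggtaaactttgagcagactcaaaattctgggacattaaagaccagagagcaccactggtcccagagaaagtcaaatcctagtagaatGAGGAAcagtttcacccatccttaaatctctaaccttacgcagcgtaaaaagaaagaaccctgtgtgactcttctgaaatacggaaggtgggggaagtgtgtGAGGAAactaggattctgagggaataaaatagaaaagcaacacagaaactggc
Cd163 upstream window: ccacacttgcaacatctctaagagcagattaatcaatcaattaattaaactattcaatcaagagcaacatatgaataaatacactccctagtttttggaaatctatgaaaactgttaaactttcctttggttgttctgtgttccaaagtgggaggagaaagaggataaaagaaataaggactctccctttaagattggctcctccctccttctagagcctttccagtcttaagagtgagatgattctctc

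The second set holds Cd5l (chr3:87357631-87357880, plus strand), Lyz2 (chr10:117282273-117282522, minus strand) and Aif1 (chr17:35176053-35176302, minus strand), which were higher in the Cpt1a knockout than in the reference group.
Cd5l upstream window: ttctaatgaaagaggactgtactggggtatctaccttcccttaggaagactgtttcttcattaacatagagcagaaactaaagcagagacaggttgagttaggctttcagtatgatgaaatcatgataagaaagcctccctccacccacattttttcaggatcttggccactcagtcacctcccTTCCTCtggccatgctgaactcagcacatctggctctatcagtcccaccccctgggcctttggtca
Lyz2 upstream window: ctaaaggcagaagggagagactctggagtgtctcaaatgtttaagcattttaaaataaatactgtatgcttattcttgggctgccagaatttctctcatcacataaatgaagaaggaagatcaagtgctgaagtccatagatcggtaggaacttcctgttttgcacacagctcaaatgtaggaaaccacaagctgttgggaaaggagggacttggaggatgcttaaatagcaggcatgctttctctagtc
Aif1 upstream window: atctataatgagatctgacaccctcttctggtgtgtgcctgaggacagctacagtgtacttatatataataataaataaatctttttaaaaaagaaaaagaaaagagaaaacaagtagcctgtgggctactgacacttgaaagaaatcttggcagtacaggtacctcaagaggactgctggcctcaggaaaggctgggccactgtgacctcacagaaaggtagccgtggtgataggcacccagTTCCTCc
Among these 7 windows, GAGGAA or its reverse complement lay in those of Vsig4, at positions −155 and −53, of Cd5l at −66 and of Aif1 at −7, counted from the transcription start. TGCTGAC or its reverse complement lay in that of Timd4, at −45. Neither was found in the windows of Clec4f, Cd163 and Lyz2. RefSeq windows were found for 24 of the 31 members, 27 windows in all, and 13 of the 27 held GAGGAA on either strand, against 23.3% of 32851 windows of all genes. TGCTGAC was in 1 of the 27 and in 3.81% of all windows. No match of one motif overlapped a match of the other in the windows shown, and a match is only a match of letters. The members without an entry were Adgre1, Msr1, C1qa, Csf1r, Spi1, Cd14 and Tyrobp.

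The 4 livers had 14106038, 13138884, 14116441 and 13682887 counts, and 31 of the 31 members had a count in every liver. Levels between genes are compared in FPKM, that is, per length of the gene model. The members summed to 384, 395, 369 and 390 FPKM in livers 1 to 4, or 384 ± 11.0 FPKM (SD, n = 4). Their summed level was thus nearly the same in the 4 livers. A mean of at least 1 FPKM was reached by 28 members, and Cd5l and Lyz2 stood among the top 1000 genes of the livers by mean level. The order of mean levels began with Cd5l, Lyz2, Id3, Clec4f and C1qb, and in this order neighbours differed by less than the larger of their SDs, except Clec4f and C1qb. The lowest members were Folr2, Ms4a7 and Itgam.

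**Figure D1:**
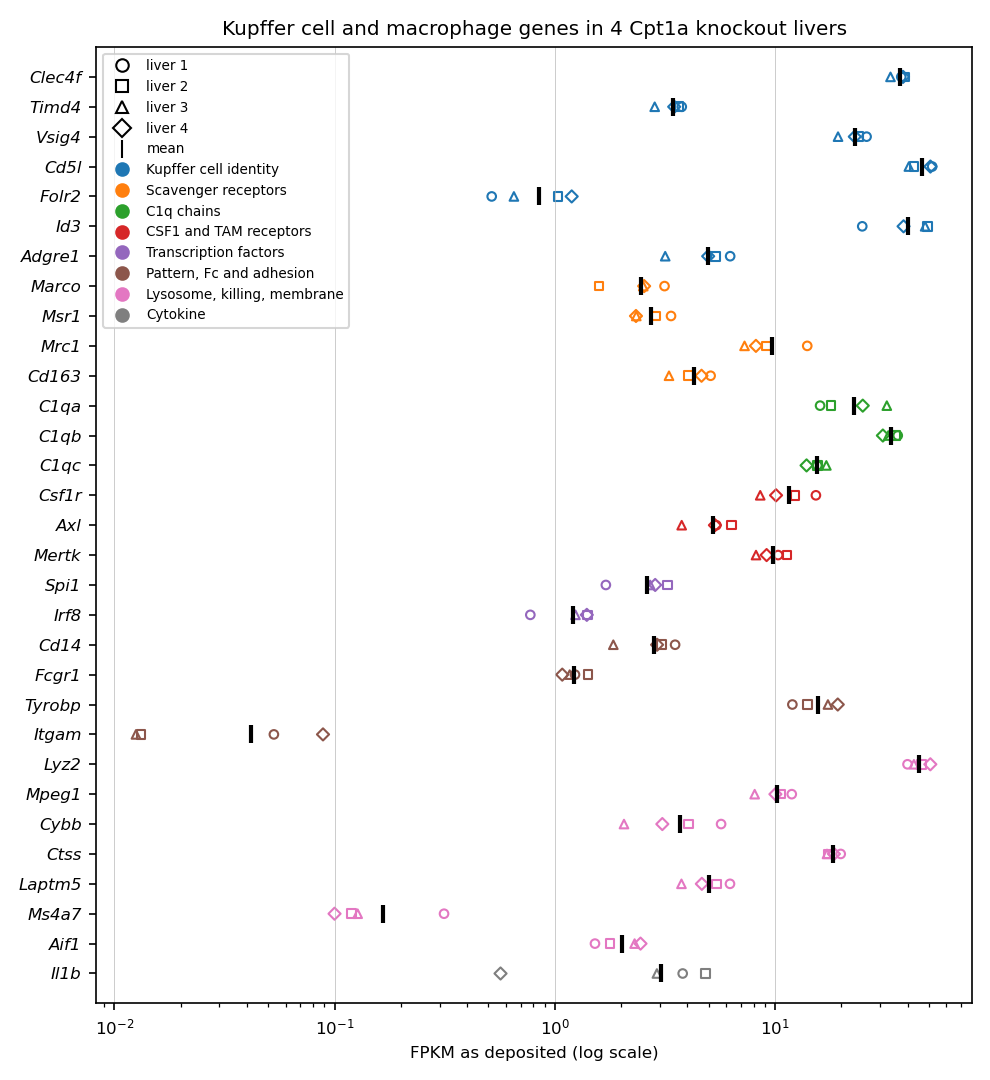
Level of each of the 31 members in the 4 Cpt1a knockout livers, in FPKM on a log axis; symbols are livers, black bars are means and colours are the roles used in the text. Mean levels run from 46.4 FPKM for Cd5l to 0.0419 FPKM for Itgam, and Il1b has its lowest value, 0.567 FPKM, in liver 4.

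In the comparison of the Cpt1a knockout with the reference group, 12 members were higher and 1 was lower at an adjusted p below 0.05 in the authors' deposited table. Over all genes behind that table, 14.4% passed in either direction, 6.81% higher and 7.6% lower. The median log2 fold change of the 31 members was 0.56, beside 0.01 over 17054 genes, and 28 members lay above 0 and 3 below. Genes whose unadjusted p was above 0.05 are left out of that table, which holds 20 members. For the 11 others the log2 fold change is the sum of the values in the other tables, which for the 20 listed members differed by at most 0.0239 from the listed value.

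In the Cpt2 group against the same reference group, 2 members were higher and 4 were lower in the authors' deposited table. Over all 17475 genes tested, 21.0% passed, 10.3% higher and 10.7% lower, so the members' shares lie near those of all genes in this comparison. The members' median log2 fold change was −0.31, beside −0.03 over all genes, and 7 members lay above 0 and 24 below under the authors' scaling. In the Cpt1a knockout against the Cpt2 group, 21 members were higher and 1 was lower in the authors' deposited table. Over all 17755 genes tested, 28.8% passed, 14.2% higher and 14.6% lower. The members' median log2 fold change there was 0.92, beside 0.05 over all genes, with 29 members above 0 and 2 below.

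The level of these fold changes depends on how the groups are scaled. With the groups set to equal totals over 22384 genes, from the deposited mean of the Cpt1a knockout and the deposited fold changes, every log2 fold change against the reference group is raised by 0.32 in the Cpt1a knockout and by 0.29 in the Cpt2 group, and those between the knockouts by 0.02. The members' medians are then 0.87, −0.016 and 0.95, beside 0.32, 0.27 and 0.08 over all genes, so their distance from all genes is as before. In the Cpt2 group 13 members then lie above 0 and 18 below, against 29 above and 2 below in each comparison of the Cpt1a knockout. The medians over all genes also lie above 0, so these counts are not to be read against an even split. No called member changes direction, but none could: every value is raised, and the members called lower lay further below 0 than the shift. This scaling was added after seeing the data, and no p-value could be computed for it.

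**Figure D2:**
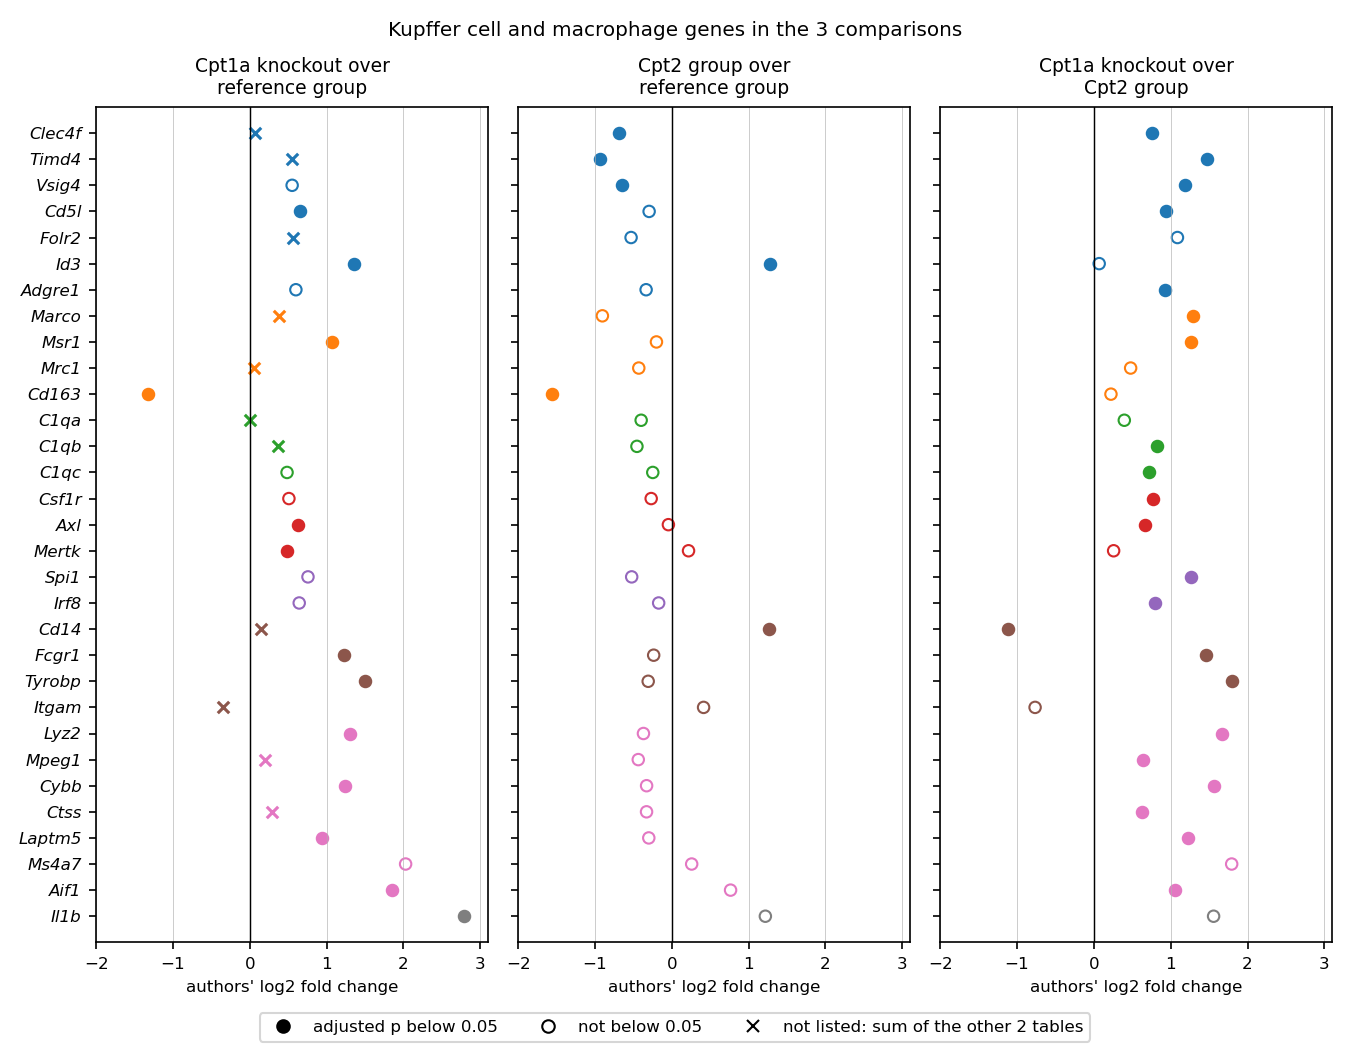
Authors' log2 fold changes of the 31 members in the 3 comparisons, coloured by role; filled circles passed an adjusted p below 0.05, open circles did not, and crosses mark members that are not listed in the table of the left panel, shown as the sum of the other tables. Filled circles lie mainly right of 0 in the left and right panels (12 and 21 members), while the middle panel has 2 right and 4 left of 0.

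The comparisons with the reference group share that group, so their values are set side by side without a measure of likeness. How many of all genes fall in each class below was not counted, so the classes are a list and not a result about the members. In the authors' deposited tables, 11 members were higher in the Cpt1a knockout and did not pass in the Cpt2 group: Cd5l, Msr1, Axl, Mertk, Fcgr1, Tyrobp, Lyz2, Cybb, Laptm5, Aif1 and Il1b. Id3 was higher in both knockouts and Cd163 was lower in both. Clec4f, Timd4 and Vsig4 passed as lower, and Cd14 as higher, in the Cpt2 group and not in the Cpt1a knockout, while 14 members passed in neither. The direct comparison of the knockouts rests on the same groups that placed members in these classes, so it is no separate check of them. In the authors' deposited table it was passed by 9 of those 11, the exceptions being Mertk and Il1b, beside 28.8% of all genes. Clec4f, Timd4, Vsig4 and Cd14 also passed it.

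Markers of Kupffer cell identity differed widely in level in the Cpt1a knockout livers, from 46.4 FPKM on average for Cd5l to 0.849 FPKM for Folr2. Clec4f (ENSMUSG00000014542, chromosome 6, 83644542 to 83656187, minus strand, GRCm38), a galactose-binding lectin that in mice marks Kupffer cells, was at 37.4, 38.7, 33.4 and 38.1 FPKM in livers 1 to 4. Liver 3 was slightly below the others, and the SD was 2.38 FPKM around 36.9 FPKM (n = 4). Timd4 (ENSMUSG00000055546, chromosome 11, 46810800 to 46844332, plus strand), a receptor for phosphatidylserine on dying cells that marks long-resident macrophages, was at 3.77, 3.67, 2.84 and 3.48 FPKM. Vsig4 (ENSMUSG00000044206, chromosome X, 96247203 to 96293438, minus strand), a receptor for complement C3 fragments, was at 26.0, 23.9, 19.3 and 23.0 FPKM. All 3 were lowest in liver 3, by little. Cd5l (ENSMUSG00000015854, chromosome 3, 87357881 to 87371073, plus strand), a secreted scavenger protein that protects macrophages from apoptosis, was at 51.7, 42.7, 40.5 and 50.7 FPKM. Adgre1, which encodes the F4/80 antigen, averaged 4.94 ± 1.30 FPKM and the folate receptor gene Folr2 averaged 0.849 ± 0.317 FPKM (SD, n = 4 each). Folr2 rests on 81 counts in all, and the antisense gene Gm10602 that overlaps it has 77, and the use of strand in counting is not given in the sources used here.

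Of these 7 identity genes, 3 were lower and 1, Id3, was higher in the Cpt2 group than in the reference group. Over all genes in the authors' deposited table, 10.7% were lower and 10.3% higher. In the authors' deposited table Clec4f was 1.61-fold lower (adjusted p = 0.00849), Timd4 1.91-fold lower (adjusted p = 0.0268) and Vsig4 1.57-fold lower (adjusted p = 0.0234). None of these 3 was called in the Cpt1a knockout against the reference group, where their log2 fold changes were 0.07 for Clec4f and 0.55 for Timd4, as sums of the other tables, and 0.55 for Vsig4 in the authors' deposited table (adjusted p = 0.0645). Compared directly with the Cpt2 group, the Cpt1a knockout was higher for Clec4f (log2 fold change 0.75, adjusted p = 3.57e-06), Timd4 (1.48, adjusted p = 3.81e-08) and Vsig4 (1.19, adjusted p = 4.84e-10) in the authors' deposited table.

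Unlike these 3, Cd5l passed against the reference group in the Cpt1a knockout and not in the Cpt2 group, though its directions were the same as theirs. It was 1.57-fold higher in the Cpt1a knockout than in the reference group in the authors' deposited table (adjusted p = 0.0297). Its log2 fold change in the Cpt2 group was −0.30 in the authors' deposited table (adjusted p = 0.442). Like these 3, Cd5l was higher in the Cpt1a knockout than in the Cpt2 group (0.94, adjusted p = 2.14e-06 in the authors' deposited table). Adgre1 did not pass against the reference group in either knockout, with log2 fold changes of 0.60 in the Cpt1a knockout (adjusted p = 0.0862) and −0.33 in the Cpt2 group (adjusted p = 0.308) in the authors' deposited tables. It was higher in the Cpt1a knockout than in the Cpt2 group (log2 fold change 0.92, adjusted p = 0.000475 in the authors' deposited table). Folr2 passed in none of the comparisons.

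Id3 (ENSMUSG00000007872, chromosome 4, 136143497 to 136145755, plus strand), a helix-loop-helix inhibitor that mouse Kupffer cells need, stood apart from the other identity genes. Its levels were 24.9, 49.3, 48.0 and 38.3 FPKM, with liver 1 well below the other 3. It was 2.57-fold higher in the Cpt1a knockout (adjusted p = 6.12e-05) and 2.43-fold higher in the Cpt2 group (adjusted p = 0.000504) than in the reference group in the authors' deposited tables. The knockouts did not pass a difference for Id3 when set against each other (log2 fold change 0.07, adjusted p = 0.892 in the authors' deposited table). Id3 is also made by other liver cells.

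Scavenger receptors split. Cd163 (ENSMUSG00000008845, chromosome 6, 124304656 to 124330527, plus strand), the receptor for haemoglobin bound to haptoglobin, was at 5.10, 4.04, 3.30 and 4.64 FPKM in livers 1 to 4. It was the member that fell in both knockouts. Relative to the reference group, the authors' deposited tables give it as 2.51-fold lower in the Cpt1a knockout (adjusted p = 4.42e-08) and 2.94-fold lower in the Cpt2 group (adjusted p = 2.58e-12). The knockouts did not pass a difference from each other for Cd163 (log2 fold change 0.22, adjusted p = 0.44 in the authors' deposited table).

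Msr1, a class A scavenger receptor for modified lipoproteins, went the other way in the Cpt1a knockout. Its levels were 3.37, 2.86, 2.34 and 2.34 FPKM, highest in liver 1. It was 2.10-fold higher than in the reference group in the authors' deposited table (adjusted p = 0.000293), while the Cpt2 group showed a log2 fold change of −0.20 (adjusted p = 0.666). Marco, another class A receptor that binds bacteria, averaged 2.45 ± 0.644 FPKM (SD, n = 4), and was higher in the Cpt1a knockout than in the Cpt2 group (log2 fold change 1.29, adjusted p = 0.00104 in the authors' deposited table). Mrc1, the mannose receptor, which sinusoidal endothelium also makes, was at 14.0, 9.13, 7.27 and 8.19 FPKM, high in liver 1. It passed in none of the comparisons.

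The C1q chains, which together form the recognition part of complement component C1 and are made mostly by macrophages, lie next to each other within 18675 bases on chromosome 4 (136880129 to 136898803). C1qa was at 16.0, 18.0, 32.2 and 25.0 FPKM, with liver 3 highest and liver 1 lowest. C1qb averaged 33.7 ± 2.41 FPKM and C1qc 15.5 ± 1.31 FPKM (SD, n = 4 each), so these neighbours varied far less between livers than C1qa. Against the reference group none of the 3 passed in either knockout in the authors' deposited tables, and their log2 fold changes in the Cpt2 group were −0.40, −0.45 and −0.25 for C1qa, C1qb and C1qc. C1qb (log2 fold change 0.83, adjusted p = 5.77e-05) and C1qc (0.72, adjusted p = 0.00185) were higher in the Cpt1a knockout than in the Cpt2 group in the authors' deposited table, and C1qa did not pass (0.40, adjusted p = 0.281).

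Of the growth factor and TAM receptors, Csf1r, the receptor for CSF1 and interleukin 34, was at 15.3, 12.3, 8.57 and 10.1 FPKM, high in liver 1 and low in liver 3. Csf1r overlaps Hmgxb3 on the opposite strand, with 788 counts for that gene against 3469 for Csf1r. Axl and Mertk are receptor tyrosine kinases that recognise dying cells through the bridging proteins Gas6 and protein S. Axl averaged 5.21 ± 1.07 FPKM and Mertk 9.75 ± 1.36 FPKM (SD, n = 4 each). In the Cpt1a knockout Axl was 1.55-fold higher (adjusted p = 0.0287) and Mertk 1.40-fold higher (adjusted p = 0.0337) than in the reference group in the authors' deposited table. Csf1r did not pass there (log2 fold change 0.51, adjusted p = 0.146), but it passed against the Cpt2 group (0.77, adjusted p = 0.000394), as did Axl (0.66, adjusted p = 0.00328), in the authors' deposited table. None of the 3 passed in the Cpt2 group against the reference group.

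The ligands of these receptors and related factors were followed as a list of 6 genes. Counts for this and every list below are to be read beside the shares of all genes called. These were 6.81% higher and 7.6% lower in the Cpt1a knockout against the reference group, and 10.3% and 10.7% in the Cpt2 group. Between the knockouts they were 14.2% and 14.6%. By the authors' deposited tables, 1 was higher and 1 lower in the Cpt1a knockout against the reference group, 1 was higher in the Cpt2 group, and 1 was higher and 1 lower between the knockouts. Gas6, which binds Axl and Mertk, was higher in the Cpt2 group than in the reference group (log2 fold change 1.23, adjusted p = 3.09e-05 in the authors' deposited table). Pros1, which encodes protein S and is also made by hepatocytes, was lower in the Cpt1a knockout than in the reference group (log2 fold change −0.81, adjusted p = 0.00362 in the authors' deposited table). Tgfb1 was higher in the Cpt1a knockout (0.91, adjusted p = 0.00611 in the authors' deposited table). Csf2 had no count in the 4 livers.

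The lineage transcription factors were low. Spi1, which encodes PU.1, was at 1.71, 3.26, 2.71 and 2.86 FPKM, and Irf8 was at 0.774, 1.40, 1.24 and 1.40 FPKM. Liver 1 was the lowest for both. Neither passed against the reference group in either knockout, with log2 fold changes of 0.76 for Spi1 (adjusted p = 0.103) and 0.64 for Irf8 (adjusted p = 0.13) in the Cpt1a knockout in the authors' deposited table. In the Cpt1a knockout both were higher than in the Cpt2 group, Spi1 by 1.27 (adjusted p = 2.44e-05) and Irf8 by 0.80 (adjusted p = 0.00536) on the log2 scale in the authors' deposited table.

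Another 11 transcription factors of macrophages were followed, several of which hepatocytes also express. By the authors' deposited tables, 2 were higher and 2 lower in the Cpt1a knockout against the reference group, 2 higher and 4 lower in the Cpt2 group, and 5 higher and 1 lower between the knockouts. Maf was lower in the Cpt2 group than in the reference group (log2 fold change −0.61, adjusted p = 0.00432 in the authors' deposited table), while Zeb2, needed for macrophage identity in mice, was higher in the Cpt1a knockout than in the reference group (0.82, adjusted p = 0.0177 in the authors' deposited table).

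The 4 pattern, Fc and adhesion receptors included the member with a direction opposite to most others. Cd14 (ENSMUSG00000051439, chromosome 18, 36725074 to 36726736, minus strand), the co-receptor for bacterial lipopolysaccharide, was at 3.52, 3.05, 1.84 and 2.91 FPKM, lowest in liver 3. It was 2.41-fold higher in the Cpt2 group than in the reference group in the authors' deposited table (adjusted p = 0.00987). In the Cpt1a knockout it was 2.17-fold lower than in the Cpt2 group in the authors' deposited table (adjusted p = 0.00241), and it was the single member that passed in that direction.

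Tyrobp (ENSMUSG00000030579, chromosome 7, 30413760 to 30417585, plus strand), the adaptor DAP12 that passes on signals of many myeloid receptors, was at 12.0, 14.1, 17.4 and 19.3 FPKM, lowest in liver 1. It was 2.83-fold higher in the Cpt1a knockout than in the reference group in the authors' deposited table (adjusted p = 1.56e-06). For the Cpt2 group its log2 fold change was −0.31 in the authors' deposited table (adjusted p = 0.641), and the Cpt1a knockout was 3.49-fold higher than the Cpt2 group (adjusted p = 2.01e-07). Fcgr1, the high-affinity receptor for IgG, averaged 1.22 ± 0.140 FPKM (SD, n = 4) and was 2.34-fold higher in the Cpt1a knockout than in the reference group in the authors' deposited table (adjusted p = 0.00728). Itgam, the integrin CD11b of monocytes and neutrophils, had 13 counts in the 4 livers together and passed in none of the comparisons.

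Of the 7 genes of lysosomes, microbial killing and the macrophage membrane, 4 were higher in the Cpt1a knockout than in the reference group, beside 6.81% of all genes, by the authors' deposited table. Lyz2 (ENSMUSG00000069516, chromosome 10, 117277331 to 117282321, minus strand), a lysozyme that cuts bacterial cell walls, was at 39.9, 46.3, 42.7 and 50.7 FPKM. Its levels differed little between livers. It was 2.47-fold higher in the Cpt1a knockout than in the reference group in the authors' deposited table (adjusted p = 5.16e-05), while the log2 fold change of the Cpt2 group was −0.37 (adjusted p = 0.434). Between the knockouts it was 3.17-fold higher in the Cpt1a knockout than in the Cpt2 group in the authors' deposited table (adjusted p = 5.55e-18). Its paralog Lyz1, whose transcript is 95.8% identical over 1264 aligned bases, had 1 count in the 4 livers.

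Cybb, the membrane subunit gp91phox of the phagocyte NADPH oxidase, was at 5.69, 4.04, 2.06 and 3.08 FPKM, highest in liver 1 and lowest in liver 3. It was 2.36-fold higher in the Cpt1a knockout than in the reference group in the authors' deposited table (adjusted p = 0.00132). Laptm5, a lysosomal membrane protein of blood cells, averaged 5.02 ± 1.06 FPKM (SD, n = 4) and was 1.91-fold higher (adjusted p = 0.00103 in the authors' deposited table). Aif1 (ENSMUSG00000024397, chromosome 17, 35170991 to 35176068, minus strand), the actin-binding protein known as IBA1, was at 1.52, 1.78, 2.30 and 2.45 FPKM, lowest in liver 1. It was 3.59-fold higher in the Cpt1a knockout than in the reference group in the authors' deposited table (adjusted p = 0.000338).

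The remaining 3 genes of this group did not pass in the Cpt1a knockout against the reference group. Mpeg1, the pore-forming perforin-2, averaged 10.2 ± 1.60 FPKM, and the protease gene Ctss averaged 18.3 ± 1.20 FPKM (SD, n = 4 each). Their log2 fold changes there, as sums of the other tables, were 0.20 and 0.29. Both were higher in the Cpt1a knockout than in the Cpt2 group, by 0.63 (adjusted p = 0.000699) and 0.62 (adjusted p = 0.00416) on the log2 scale in the authors' deposited table. Ms4a7, with 45 counts in the 4 livers, showed 2.03 on the log2 scale and did not pass (adjusted p = 0.113 in the authors' deposited table). None of the 7 passed in the Cpt2 group against the reference group, beside 21.0% of all genes. Between the knockouts, 6 of the 7 were higher in the Cpt1a knockout than in the Cpt2 group, beside 14.2% of all genes.

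The other 5 subunits of the phagocyte NADPH oxidase were set beside Cybb. Of these, 1, Rac2, was higher in the Cpt1a knockout than in the reference group (log2 fold change 1.05, adjusted p = 0.019 in the authors' deposited table), none passed in the Cpt2 group, and 4 were higher in the Cpt1a knockout than in the Cpt2 group. Among them were Cyba (log2 fold change 1.15, adjusted p = 3.61e-05), Rac2 (1.23, adjusted p = 0.00318) and Ncf4 (1.11, adjusted p = 0.0219) in the authors' deposited table. The median log2 fold change of the 5 was 0.74, −0.41 and 1.11 in the 3 comparisons in the order used above.

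Il1b (ENSMUSG00000027398, chromosome 2, 129364570 to 129371139, minus strand), the precursor of interleukin 1 beta, was the cytokine among the members and varied most between livers of those above 1 FPKM. Its levels were 3.81, 4.85, 2.91 and 0.567 FPKM, with liver 4 far below the other 3. It was 6.89-fold higher in the Cpt1a knockout than in the reference group in the authors' deposited table (adjusted p = 3.79e-06). Its log2 fold change in the Cpt2 group was 1.22 in the authors' deposited table (adjusted p = 0.134), and the knockouts did not pass a difference for it (log2 fold change 1.56, adjusted p = 0.148).

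Another 10 genes of inflammatory cytokines and sensors gave 2 higher in the Cpt1a knockout against the reference group, 1 lower in the Cpt2 group, and 4 higher between the knockouts in the authors' deposited tables. Il1a was higher in the Cpt1a knockout (log2 fold change 0.97, adjusted p = 0.0274), as was Tlr4, the lipopolysaccharide receptor (1.30, adjusted p = 0.00892), in the authors' deposited table. Il18 was lower in the Cpt2 group, with a log2 fold change of −1.64 against the reference group (adjusted p = 0.00017 in the authors' deposited table).

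Lists of other Kupffer cell and myeloid genes gave a context for the members. By the authors' deposited tables, of 12 other genes used as Kupffer cell markers 1 was higher and 1 lower in the Cpt1a knockout against the reference group, 1 higher and 1 lower in the Cpt2 group, and 9 higher and 1 lower in the Cpt1a knockout against the Cpt2 group. Slc11a1, a metal transporter of phagosomes, was the one that was higher in the Cpt1a knockout (log2 fold change 0.69, adjusted p = 0.0196), and C6, a complement component, was lower in both knockouts (−0.67, adjusted p = 0.0393, and −1.42, adjusted p = 8.61e-09), in the authors' deposited tables. Hmox1, which breaks down haem, was higher in the Cpt2 group (2.05, adjusted p = 0.00283 in the authors' deposited table). It was lower in the Cpt1a knockout than in the Cpt2 group (−1.63, adjusted p = 1.14e-05 in the authors' deposited table).

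Of 16 other genes shared by myeloid cells, 11 were higher and 0 lower in the Cpt1a knockout against the reference group, 3 were higher in the Cpt2 group, and 11 were higher and 1 lower between the knockouts, in the authors' deposited tables. The shares of all genes called higher were 6.81, 10.3 and 14.2% in the same order. The Fc receptor gene Fcgr3 and its signalling chain Fcer1g were higher in both knockouts. By the authors' deposited tables, their log2 fold changes were 2.19 (adjusted p = 4.51e-14) and 2.18 (adjusted p = 7.4e-09) in the Cpt1a knockout, and 1.22 (adjusted p = 8.79e-05) and 1.41 (adjusted p = 0.000161) in the Cpt2 group. Clec7a, the beta-glucan receptor, was higher in the Cpt1a knockout (1.86, adjusted p = 9.14e-05 in the authors' deposited table). The lysosomal glycoprotein gene Cd68 went with Cd14: it was higher in the Cpt2 group than in the reference group (log2 fold change 2.60, adjusted p = 2.96e-25), and lower in the Cpt1a knockout than in the Cpt2 group (−2.18, adjusted p = 2.56e-22), in the authors' deposited tables.

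**Figure D3:**
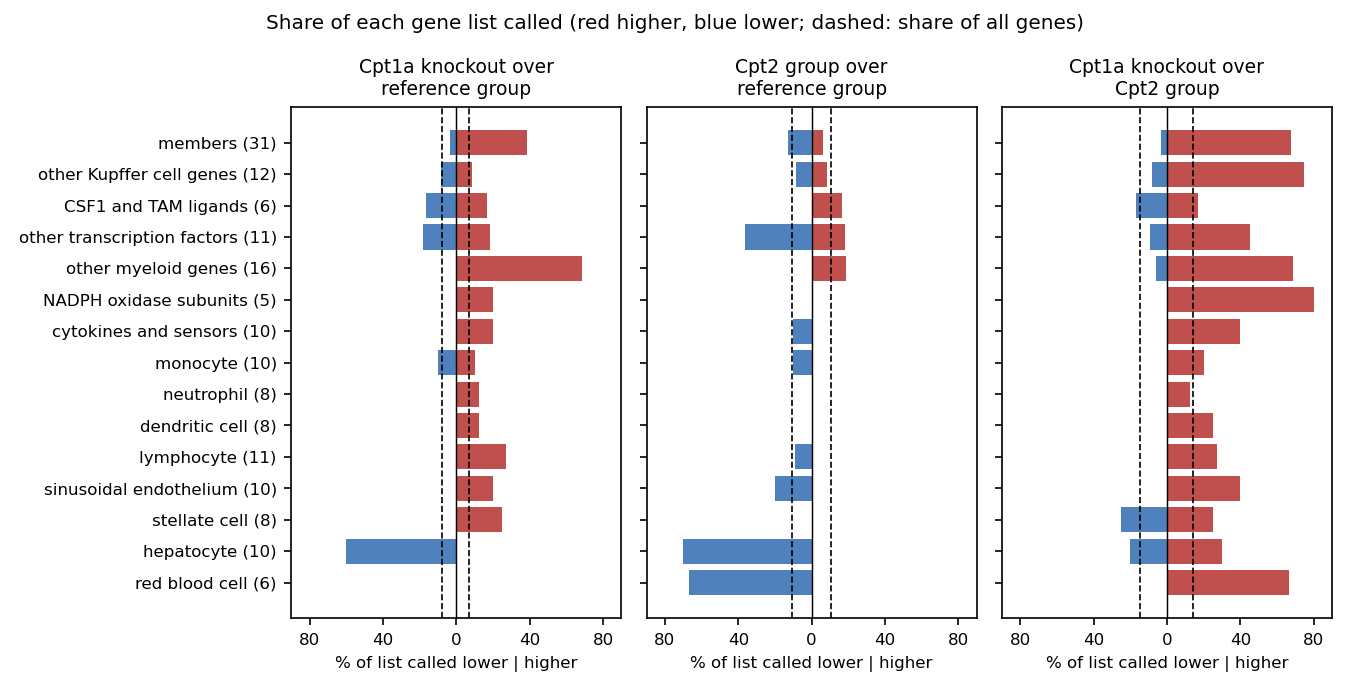
Percent of each gene list that passed an adjusted p below 0.05 in the authors' tables, higher to the right in red and lower to the left in blue, with the number of genes in brackets and dashed lines for all genes tested. In the first panel the longest red bars belong to other myeloid genes (11 of 16) and the members (12 of 31), and the longest blue bar to hepatocyte genes (6 of 10).

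Some markers of other cell types also differed between the groups. Of 10 hepatocyte genes, 6 were lower in the Cpt1a knockout and 7 in the Cpt2 group against the reference group in the authors' deposited tables. Over all genes, 7.6% and 10.7% were lower there. The 10 genes summed to 20750 to 29525 FPKM in the 4 livers. Alb, the albumin gene, was lower in the Cpt1a knockout (log2 fold change −1.23, adjusted p = 2.71e-08) and in the Cpt2 group (−1.41, adjusted p = 5.85e-17) in the authors' deposited tables. Hepatocyte transcripts make up most of liver RNA, so the authors' scaling between groups bears on every fold change here, as given beside the medians above.

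Among red blood cell genes, the authors' deposited tables give 4 of 6 as lower in the Cpt2 group than in the reference group and 4 as higher in the Cpt1a knockout than in the Cpt2 group. Their median log2 fold change was −1.58 in the Cpt2 group against the reference group and 1.79 in the Cpt1a knockout against the Cpt2 group. In the 4 livers they summed to between 175 and 521 FPKM. Of 10 sinusoidal endothelial genes, 2 were higher in the Cpt1a knockout, 2 lower in the Cpt2 group and 4 higher between the knockouts in the authors' deposited tables, and they summed to 85.9 to 101 FPKM. Dnase1l3 was among each of these, with log2 fold changes of 0.69 (adjusted p = 0.0424), −0.87 (adjusted p = 0.00449) and 1.55 (adjusted p = 7.64e-13) in the authors' deposited tables. By the same deposited tables of the authors, of 8 stellate cell genes 2 were higher in the Cpt1a knockout, none passed in the Cpt2 group, and 2 were higher and 2 lower between the knockouts. The part of these cell types in the members' results was not tested.

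Blood leukocyte markers were low in the livers. The 10 monocyte genes summed to 39.2 to 65.1 FPKM, nearly all of it from Fn1 (46.4 ± 11.8 FPKM, SD, n = 4), which hepatocytes also make, and 5 of the 10 were under 0.1 FPKM, with S100a4 at 0 in every liver. By the authors' deposited tables, 1 was higher and 1 lower in the Cpt1a knockout, 1 lower in the Cpt2 group, and 2 higher between the knockouts, among them Ccr2, the monocyte chemokine receptor (log2 fold change 1.34, adjusted p = 0.00528). The 8 neutrophil genes summed to 3.69 to 4.63 FPKM, with Csf3r higher in the Cpt1a knockout than in the reference group (1.19, adjusted p = 0.00771 in the authors' deposited table). The 8 dendritic cell genes summed to 3.62 to 5.54 FPKM, and 1 of them was higher in the Cpt1a knockout. The 11 lymphocyte genes summed to 3.66 to 5.03 FPKM, and 3 of them, led by the B cell gene Cd79b (2.45, adjusted p = 0.00206), were higher in the Cpt1a knockout in the authors' deposited table. Median log2 fold changes of these lists in the Cpt1a knockout against the reference group were 1.74 for the neutrophil, 1.53 for the lymphocyte, 0.70 for the dendritic cell and 0.09 for the monocyte list, beside 0.56 for the members. In the Cpt2 group they were 1.03, 0.50, −0.20 and 0.15 in the same order, beside −0.31. These medians rest mostly on genes of low level. A mean of at least 1 FPKM was reached by 1 of 8 neutrophil, 1 of 11 lymphocyte, 2 of 8 dendritic cell and 2 of 10 monocyte genes. The neutrophil medians cover the 7 genes with a fold change. The part of blood leukocytes in the rise of members that they also express, such as Lyz2, Tyrobp and Il1b, was not tested.

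Between the 4 livers, the median coefficient of variation of the 28 members above 1 FPKM was 20.7%, against 17.3% for 9379 genes in the same range of levels, and counting alone gives a median of 5.40% for these members. The coefficient was under 15% for 10 of the 28 and at least 30% for 4, Mrc1, C1qa, Cybb and Il1b. Liver 1 was the highest for 16 members and liver 3 the lowest for 16. Deviations of the members were correlated with the length of the gene model. Across the 28 members, the Spearman correlation of a gene's deviation from its mean with its length was 0.41, 0.42, −0.56 and −0.39 in livers 1 to 4, and across 10859 genes it was 0.39, 0.21, −0.38 and −0.27. These are correlations across genes of the same libraries, given as a description, and their part in the members' spread was not tested. Members of at least 2471 bases, the median length of the 31, had a median of 118, 108, 78.4 and 96.3% of their own mean level in livers 1 to 4, and shorter members had 108, 102, 96.3 and 102%. Over the 10859 genes, those of at least that length had 105, 99.7, 97.4 and 96.1%, and shorter genes had 86.8, 93.8, 110 and 105%. By these medians, shorter members lay above their mean in liver 1 and below it in liver 3, unlike shorter genes in general.

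**Figure D4:**
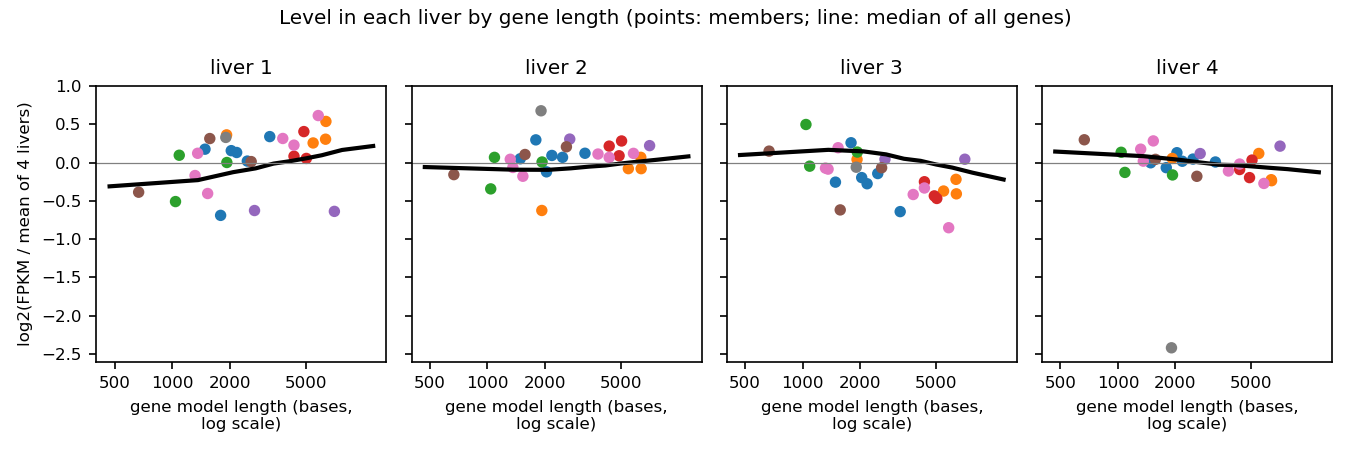
Deviation of each member above 1 FPKM from its mean over the 4 livers, on a log2 scale, by length of the gene model on a log axis, with 1 panel per liver, colours as in the plot of levels, and the median of all genes in length bins as a line. Long members sit high in liver 1 and low in liver 3, where the line for all genes also slopes, and Il1b is the low point in liver 4 at 0.567 FPKM.

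The members' log2 fold changes between groups were also set against length. The Spearman correlation across the members was −0.09 (31 members, summed values) or −0.35 (the 20 members listed in the authors' deposited table) for the Cpt1a knockout against the reference group, 0.13 for the Cpt2 group against the reference group and −0.15 for the Cpt1a knockout against the Cpt2 group. Over all genes it was −0.07 with summed values and −0.05 with listed values in the first of these, then 0.05 and −0.12. These values are descriptions across genes. Members that were higher in the Cpt1a knockout than in the reference group included Tyrobp with 667 bases and Msr1 with 6344 bases. The part of length in the members' fold changes was not tested.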

How the data were processed

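RNA-seq of 4 livers was analysed. Alignment used HISAT2 and the genome build GRCm38 (mm10), per the submitters' processing notes. For the counter, the annotation release and strand, nothing is given in the sources used here. Deposited by the authors were raw read counts per gene, and FPKM values made from those counts and the gene model lengths. Their 3 comparison tables give, per the file headers, group means of normalized counts (a signal), the log2 fold change, and a p-value with its adjusted p-value. Of the means, only the deposited signal of the Cpt1a knockout was used: it could be rebuilt from the 4 counts, and with the fold changes it gave a scaling to equal totals as an alternative. A further 8 columns of the count table name libraries outside the series and were left out.

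Because the series holds 1 group, no test between groups could be fitted. Calls use an adjusted p below 0.05 in the authors' table and the direction of the fold change deposited with it. Which test gave these is not stated. Calls on the first table are set against about 16862 tested genes, the number that its adjusted values imply. The comparison tables were scaled separately. Levels, SDs and medians were computed with Python 3.11.15, pandas 2.3.3 and scipy 1.17.1, and the steps were tested on simulated data. As alternatives, levels were rescaled with TMM of edgeR 4.0.16 and size factors of DESeq2 1.42.0 (R 4.3.3), from the counts and their sum, with pseudocounts, other thresholds, and each liver left out.

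The members and lists were chosen with earlier results of these data known. All members may be named; of each other list, the 4 genes with the smallest adjusted p and, for cell types, the 3 with the highest FPKM. Genes overlapping a member or nearly identical to one were added. Some genes of the other lists that this rule selects are not reported here.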

Additional observations from a re-analysis of the deposited data

Results flagged for a closer look

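Levels of 4 livers were checked for 1 liver far from the others, in 53 groups of values (31 members and 22 sums over lists), and chance flags about 1 in 20 such groups. Ms4a7 was at 0.314 FPKM in liver 1, far above its other livers, from 45 counts in all. The C1q chains summed to 81.9 FPKM in liver 3, above the other 3 livers. Other macrophage transcription factors summed to 316 FPKM in liver 3, against 254 to 264 FPKM in the other livers. The other NADPH oxidase subunits summed to 14.3 FPKM in liver 4, above the other 3 livers.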

How the results depend on the processing

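A count of calls was taken as moved when it changed by over 1.5 times, a median log2 fold change by 0.1 or more, a summed level by 1 SD and a coefficient of variation by 5 percentage points. By these limits 37 alternative values stayed and 11 moved. Pseudocounts and leaving out a liver shift a mean of 4 livers by little by construction, so the levels of single members are not read as a check. The 12 members higher in the Cpt1a knockout than in the reference group became 9 at an adjusted p below 0.01 and 8 with at least a 2-fold change. With the groups scaled to equal totals, chosen after seeing the data, the members' median log2 fold change against the reference group was 0.87 in the Cpt1a knockout and −0.016 in the Cpt2 group, as all genes moved by 0.32 and 0.29. In the Cpt2 group against the reference group, the 4 lower members became 2 at an adjusted p below 0.01 and 1 with at least a 2-fold change. The 21 members higher in the Cpt1a knockout than in the Cpt2 group became 11 with at least a 2-fold change. The summed level of the members was 431 FPKM from the counts and their sum, 430 with TMM, 428 with DESeq2 size factors, and 216 without the 4 highest members, a setting chosen after seeing the data. The median coefficient of variation of all 31 members was 21.2%, and 14.1 to 24.6% with 1 liver left out (14.1% without liver 1, 14.6% without liver 3). The summed level was 381 to 389 FPKM with 1 liver left out. No paired analysis was possible because the series holds 1 group of samples. Leaving out a library could not be run on the authors' comparisons. Depth limits Itgam (13 counts), Ms4a7 (45 counts) and Folr2 (81 counts).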
